A study of Rattus norvegicus with 18 samples.

Results

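DNA methylation was followed at the Ak5 and Ptger3 loci on rat chromosome 2, in 88 CpGs out of 1451601 CpGs with at least 10 reads on a strand in at least 1 striatum. The Ak5 window, chr2:257724694-257854806 in rn6, held 78 of them, and the Ptger3 window, chr2:263912140-264012140, held 10. The windows were built around 3 CpGs, and these CpGs were selected on measured values of the same rats. The first Ak5 CpG, at position 257749694, was chosen by its difference between L-DOPA and untreated (UNT) rats. The second Ak5 CpG, at 257829806, and the Ptger3 CpG, at 263962140, were chosen by their difference between L-DOPA + R and L-DOPA. In the contrast that selected a CpG, its values and those of its window are therefore a description and carry no test. The other comparisons of treatments at these 3 CpGs share a group with the selecting contrast, so their values are given without a p-value as well. These comparisons also enter the counts over the CpGs of the windows: those called, those at an unadjusted p under 0.05 and those without overlap between rats. A call of these 3 CpGs in such a count, also under an alternative, is a description. The study's own annotation places all 3 CpGs in introns, and an annotation of rn6 was not used here.

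Ak5 encodes an adenylate kinase, an enzyme that passes a phosphate group between adenine nucleotides and so links AMP, ADP and ATP. This isoform is known for its expression in brain. Ptger3 encodes EP3, a receptor for prostaglandin E2 that couples mainly to inhibitory G proteins and lowers cyclic AMP. Methylation of CpGs inside a gene body is usually high in mammalian tissue, while CpG-rich promoters are usually unmethylated. In the RefSeq gene table of GRCr8, a later assembly, Ak5 lies between Zzz3 and Pigk, Ptger3 follows Zranb2, and 18 protein-coding genes lie between Ak5 and Ptger3.

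Young male Wistar rats were lesioned on one side with 6-OHDA, a toxin of dopamine neurons that was injected into the medial forebrain bundle on postnatal day 21. All 9 rats carried the lesion, so the untreated group was lesioned as well and no rat without a lesion was included. From postnatal day 35 to 49 the rats received 6 administrations of saline (UNT), of L-DOPA at 6 mg/kg, given with benserazide at 15 mg/kg (L-DOPA), or of the same with 6 mg/kg Riluzole (L-DOPA + R). They were treated once more on postnatal day 53, when both striata were taken. Each group had 3 rats, with the control (unlesioned) and the lesioned striatum of each rat sequenced by reduced representation bisulfite sequencing (RRBS), in which MspI fragments are treated with bisulfite and unmethylated cytosines are read as T. Each value is the share of reads with a C at a CpG, in percent, from cytosines with at least 10 reads and with the strands merged. Striata of a treatment with the same replicate number were taken as those of the same rat, which the labels do not state. Striatum is a mixture of cell types, and a change of methylation within cells and a change in the mixture of cells cannot be told apart in these bulk samples.

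The UNT libraries were deeper. Within the windows, 1934 to 3326 reads were kept per striatum in UNT, 1223 to 1871 after L-DOPA and 961 to 1697 after L-DOPA + R. Of the 88 CpGs, 81 were read in at least 4 striata, 44 in all 9 rats and 26 in all 18 striata, of which 22 were in Ak5 and 4 in Ptger3. Both strands were read at 8 CpGs. For want of striata with 10 reads, 24 of the 88 CpGs were tested in no comparison of treatments over both sides.

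The CpGs read in all 18 striata were methylated at both loci. Over them, the median level was 86.5% in the Ak5 window, with a range from 55.7 to 96.4%, and 67.2% in the Ptger3 window, with a range from 62.7 to 83.9%. None of these 26 CpGs was below 20%, 42.3% of them lay between 20 and 80%, and 57.7% lay above 80%. Over all 294959 CpGs read in all 18 striata, 39.0% lay below 20%, 24.1% between 20 and 80% and 36.8% above 80%. The spread between rats was like that of other CpGs of the same level, with a median SD of 6.64 points in the windows and 6.78 points in the genome between 20 and 80%, and of 3.42 and 3.45 points above 80%. At the edges of the Ak5 window, the nearest CpGs read in all 18 striata were at 42.9%, 482 bases outside its start, and 97.9%, 2863 bases outside its end, against 81.9 and 92.7% for the first and last such CpGs inside. At the Ptger3 window, a CpG 16633 bases outside the start was at 4.07% and one 12903 bases outside the end at 85.9%, against 68.0 and 83.8% inside. A CpG with little methylation thus lay near the Ptger3 window, while none of the 4 CpGs read in all 18 striata inside it was below 20%. Only 10 CpGs of this window reached 10 reads in any striatum.

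The Ak5 CpGs fell into 29 stretches with gaps of at most 100 bases, and the Ptger3 CpGs into 4. Of the 18 Ak5 stretches with a CpG read in all 9 rats, 10 had a mean level above 80% and 8 lay between 20 and 80%. The stretch means thus ranged widely along the window. The stretch from 257756049 to 257756097, for example, had a mean of 65.2%, and the one from 257781416 to 257781566 had a mean of 91.7%. These 2 stretches were picked after their values were seen. Both Ptger3 stretches with a CpG in all 9 rats lay between 20 and 80%.

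**Figure D1:**
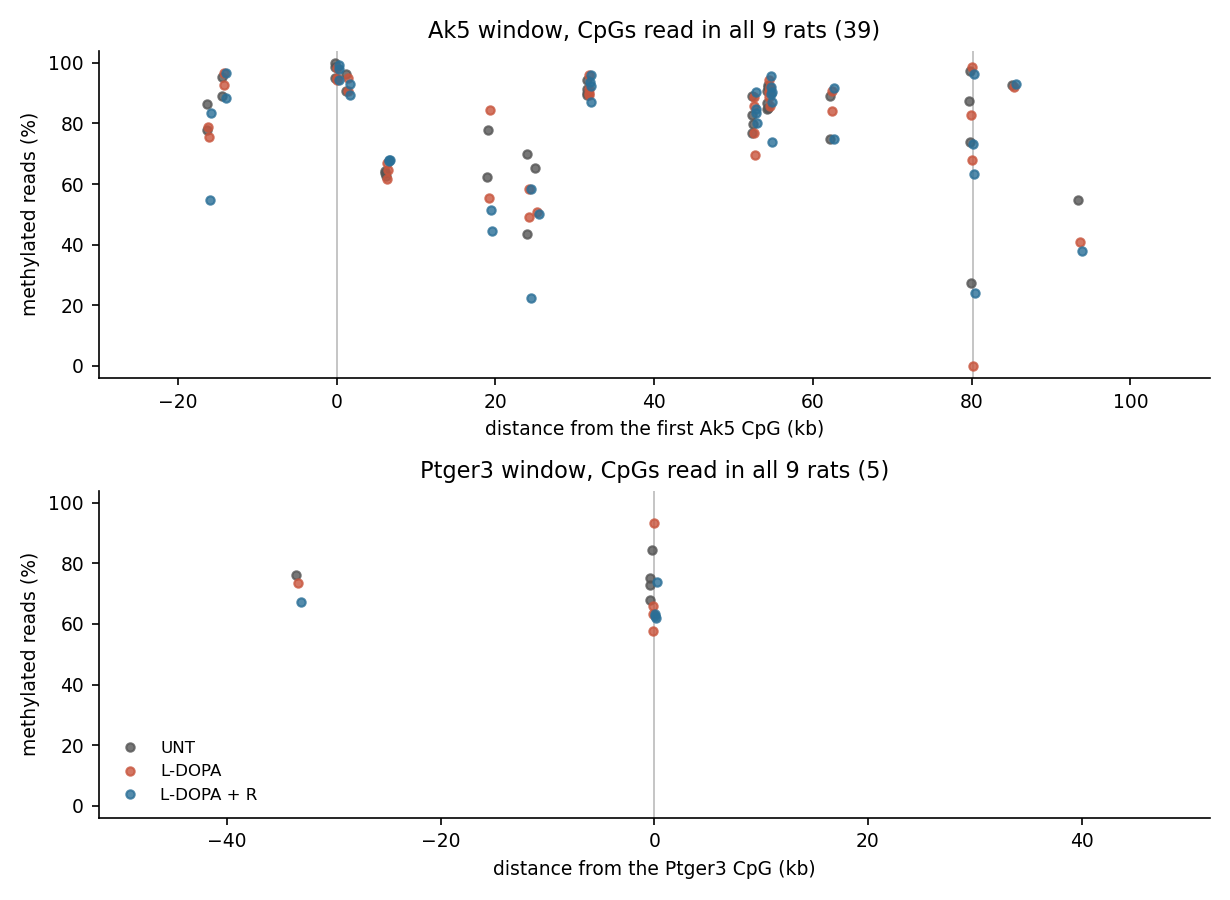
Mean methylation in percent of the CpGs read in all 9 rats (39 in the Ak5 window, 5 in the Ptger3 window) against the distance in kb from the first Ak5 CpG or from the Ptger3 CpG. Each point is the mean of 3 rats, points of the treatments are shifted slightly sideways, and gray lines mark the 3 CpGs of the selection. The highest and lowest treatment means differ by a median of 6.41 points over these 44 CpGs, and by most at 257768995 (40.1 points), followed by the second Ak5 CpG (27.4), 257773953 (26.7), 257733533 (24.3) and the Ptger3 CpG (19.2).

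The Ptger3 CpG, the deepest of the 3 CpGs of the selection, was less methylated in the rats given Riluzole with L-DOPA than in those given L-DOPA. It was read on the minus strand alone, with 1136 reads in all and 35 to 132 reads per striatum. In UNT, 82 of 97, 72 of 82 and 67 of 77 reads were methylated in the control striata of rats 1 to 3, and 107 of 132, 56 of 62 and 65 of 85 in the lesioned striata. In L-DOPA, these were 50 of 53, 42 of 43 and 50 of 56 in the control striata and 61 of 65, 40 of 41 and 58 of 67 in the lesioned striata. In L-DOPA + R, they were 29 of 44, 28 of 39 and 39 of 51 in the control striata and 26 of 35, 28 of 37 and 56 of 70 in the lesioned striata. The 6 striata of L-DOPA + R, from 65.9 to 80%, all lay below the 6 striata of L-DOPA, from 86.6 to 97.7%. The UNT striata, from 76.5 to 90.3%, overlapped with both.

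**Figure D2:**
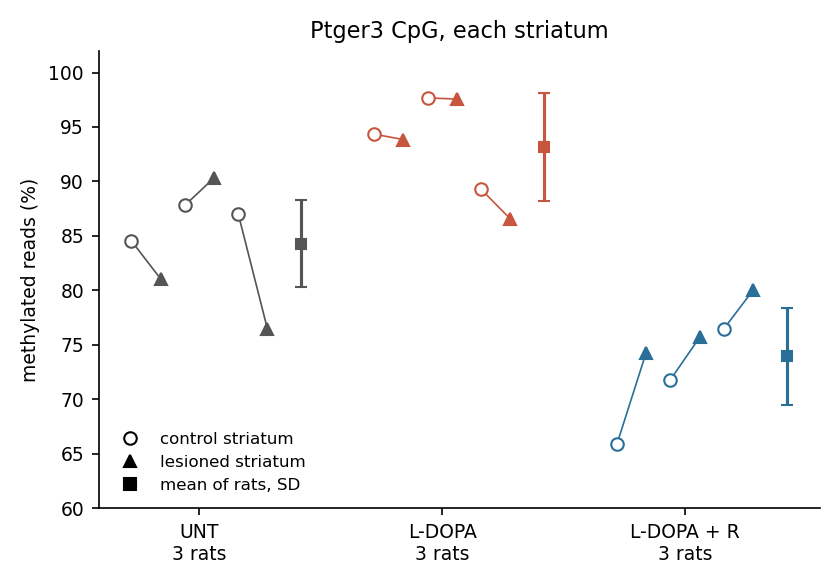
Methylated reads in percent at the Ptger3 CpG for each striatum of the 3 treatments (circles: control striata, triangles: lesioned striata, lines join the striata of a rat). Squares with bars are the mean and SD over 3 rats, and the axis starts at 60%. All L-DOPA + R points lie at or below 80%, and all L-DOPA points lie at or above 86.6%.

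With both striata of a rat added up, the Ptger3 CpG had a methylation of 84.3% ± 4.01 (SD, n = 3 rats) in UNT, 93.2% ± 4.97 after L-DOPA and 73.9% ± 4.45 after L-DOPA + R. The order from low to high was thus L-DOPA + R, UNT and L-DOPA. The difference of the summed reads between L-DOPA + R and L-DOPA was -18.0 points. It was -21.8 points for the control striata and -14.4 points for the lesioned striata. This contrast selected the CpG, so no test of it is given. Against UNT, L-DOPA + R differed by -9.29 points, with 69.6 to 78.5% in L-DOPA + R and 81.5 to 88.9% in UNT. L-DOPA differed from UNT by 8.69 points, with 87.8 to 97.6% in L-DOPA. Within a side, L-DOPA + R differed from UNT by -14.7 points in the control striata and by -4.26 points in the lesioned striata, where the value ran from -1.80 points without UNT replicate 2 to -6.72 points without L-DOPA + R replicate 3 and was -6.56 points without UNT replicate 3.

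The nearest CpG, at 263962048 and 92 bases away, was read on the plus strand and reached 10 reads in 1 striatum. From 1 read on, 16 of 30 reads were methylated in UNT, 10 of 20 after L-DOPA and 13 of 25 after L-DOPA + R. The CpGs further from the Ptger3 CpG did not follow its order of treatments. Those at 263961982, 263961984 and 263962014, 158, 156 and 126 bases away on the same strand, were read in all 18 striata. The CpG at 263962014 had 67.9% ± 3.74 in UNT, 57.8% ± 5.28 after L-DOPA and 61.9% ± 6.69 after L-DOPA + R (n = 3 rats each). The CpG at 263961982 had 75.0% ± 1.89, 65.8% ± 9.76 and 63.3% ± 8.92, and the one at 263961984 had 73.0% ± 3.48, 63.3% ± 7.87 and 62.5% ± 14.6. All 3 were thus highest in UNT, where the Ptger3 CpG was highest in L-DOPA. The mean of the 3 CpGs was 72.0% ± 1.44 in UNT, 62.3% ± 4.09 after L-DOPA and 62.5% ± 9.96 after L-DOPA + R. L-DOPA differed from UNT by -9.68 points in this mean, with no overlap between the rats (exact two-sided permutation test, p = 0.1, the smallest value that 3 rats against 3 can give). For L-DOPA + R against UNT, the mean differed by -9.44 points (exact permutation test, p = 0.3), which became -4.63 points without L-DOPA + R replicate 3 and -14.6 points without L-DOPA + R replicate 2. The rats had 73.6, 70.9 and 71.4% in UNT, 66.8, 61.1 and 58.9% after L-DOPA, and 61.9, 72.8 and 52.9% after L-DOPA + R, so that L-DOPA + R spread most. These comparisons share the UNT rats, and the 3 CpGs lie close together on the same strand. Between L-DOPA + R and L-DOPA the mean differed by 0.238 points, against the -18.0 points of the Ptger3 CpG itself. With 1 rat left out, the difference of the mean ran from -4.89 points without L-DOPA + R replicate 2 to 5.05 points without L-DOPA + R replicate 3.

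Over the 9 rats, no other CpG of the Ptger3 window had a pattern much like that of the Ptger3 CpG. Pearson's r of the percent methylated was 0.282 with 263928830 and 0.178 with 263961982, the highest of the 4 CpGs compared. These correlations are a description over 9 rats that share libraries and depth.

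At the first Ak5 CpG, every UNT read of the plus strand was methylated. This was the strand with at least 10 reads, with 48 of 48, 36 of 36 and 29 of 29 reads methylated in the UNT control striata and 47 of 47, 24 of 24 and 42 of 42 in the UNT lesioned striata. In L-DOPA, 17 of 18, 18 of 19 and 19 of 19 reads were methylated in the control striata and 24 of 27, 13 of 13 and 21 of 23 in the lesioned striata. In L-DOPA + R, 13 of 13 and 15 of 15 reads were methylated in the control striata of rats 1 and 3, the control striatum of rat 2 had under 10 reads, and the lesioned striata had 11 of 13, 10 of 11 and 27 of 27. In all, 0 of 226 reads were unmethylated in UNT, 7 of 119 after L-DOPA and 3 of 79 after L-DOPA + R. The difference thus rests on few reads, spread over 4 of 6 L-DOPA striata and 2 of 5 L-DOPA + R striata.

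The first Ak5 CpG had 94.4% ± 2.97 (SD, n = 3 rats) in the L-DOPA rats and 94.4% ± 4.90 in the L-DOPA + R rats, against 100% in each UNT rat. The 95% Wilson intervals of the summed reads, which cover counting error alone, were 98.3 to 100% in UNT, 88.4 to 97.1% after L-DOPA and 89.4 to 98.7% after L-DOPA + R. L-DOPA differed from UNT by -5.88 points in summed reads, and this contrast selected the CpG. L-DOPA + R differed from the same UNT striata by -3.80 points (-8.11 points without L-DOPA + R replicate 3 and -1.89 without L-DOPA + R replicate 1). L-DOPA + R and L-DOPA differed by 2.08 points, which turned to -2.23 points without L-DOPA + R replicate 3 and became 0.257 points without L-DOPA replicate 1 and 3.996 points without L-DOPA + R replicate 1. From 1 read on, the minus strand had 10 of 13 methylated reads in UNT, 15 of 15 after L-DOPA and 7 of 9 after L-DOPA + R, so the plus strand difference was not seen there at this depth. The UNT striata had 24 to 48 reads at this CpG and the L-DOPA striata 13 to 27.

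The CpGs 14 and 44 bases further on the same strand, at 257749708 and 257749738, were methylated at 98.4 and 95.8% of the summed reads and showed no such split between UNT and L-DOPA. At 257749708 the means were 98.5% ± 1.74 in UNT, 98.3% ± 1.49 after L-DOPA and 97.9% ± 1.94 after L-DOPA + R. At 257749738 they were 94.97% ± 1.41, 94.99% ± 4.69 and 99.2% ± 1.44, so that UNT and L-DOPA had nearly the same mean and all L-DOPA + R rats lay above all UNT rats. Over 9 rats, the first Ak5 CpG had a Pearson's r of -0.193 with 257749708 and -0.563 with 257749738. The most similar of the 36 other CpGs of the window were 257843319 (r = 0.850) and 257829757 (r = 0.671), against a median r of 0.0913, given as a description over rats that share libraries.

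**Figure D3:**
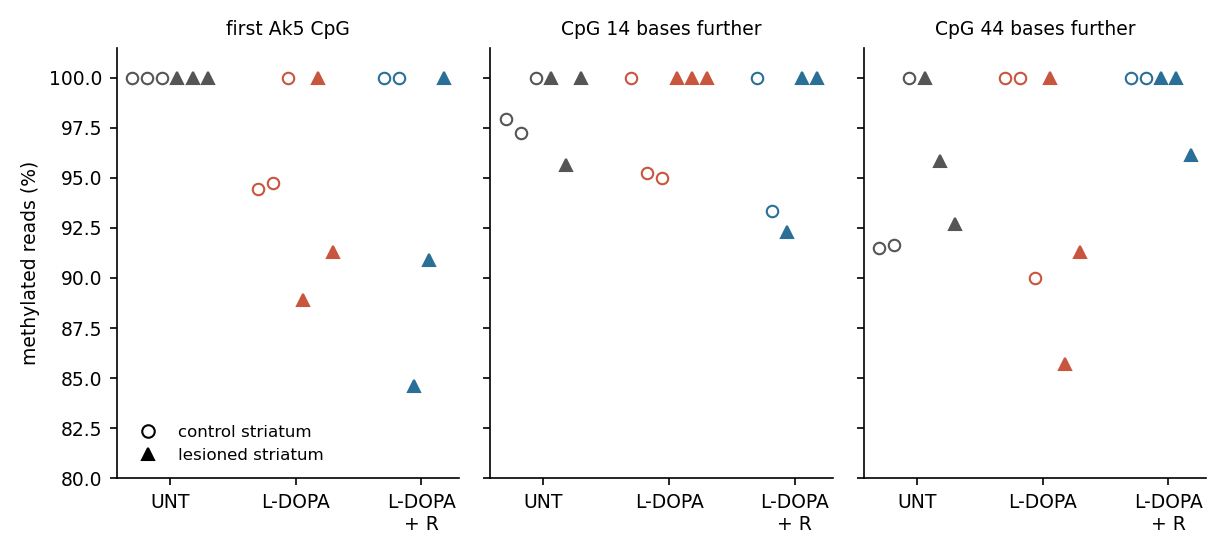
Methylated reads in percent at the first Ak5 CpG and at the CpGs 14 and 44 bases further, for each striatum with at least 10 reads (circles: control, triangles: lesioned), with an axis from 80%. All UNT striata are at 100% at the first CpG alone, while striata below 100% occur in each treatment at both other CpGs.

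At the second Ak5 CpG the strands of the same CpG gave opposite readings. The plus strand was methylated in 7 of 280 reads (2.5%) over 16 striata with at least 10 reads, and the minus strand in 77 of 82 reads (93.9%) over 7 striata, a gap of 91.4 points. The minus strand reached 10 reads in 4 striata of UNT, 0 striata of L-DOPA and 3 striata of L-DOPA + R. The merged level therefore followed which strand was kept, with rats at 45.9, 5 and 31.4% in UNT, at 0% in all 3 L-DOPA rats, and at 9.09, 43.1 and 20% in L-DOPA + R. The merged difference between L-DOPA + R and L-DOPA, which selected the CpG, was 30.4 points in summed reads, and 17.6 points without L-DOPA + R replicate 2. On the plus strand alone it was 2.90 points.

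Counting reads from 1 on, an alternative added after the data were seen, gave both strands in all 18 striata. The plus strand was then methylated in 5 of 142 reads in UNT, 1 of 78 after L-DOPA and 2 of 78 after L-DOPA + R. The minus strand was methylated in 60 of 63 reads in UNT, 37 of 39 after L-DOPA and 41 of 46 after L-DOPA + R, with 2 to 14 reads per striatum. The 95% Wilson intervals of the summed reads, which cover counting error alone and compare no treatments, ran from 1.51 to 7.98% in UNT, 0.227 to 6.91% after L-DOPA and 0.706 to 8.88% after L-DOPA + R on the plus strand. With all reads of both strands the difference between L-DOPA + R and L-DOPA was 2.20 points, from 34.7 and 32.5%. L-DOPA and UNT, with the minimum of 10 reads, differed by -27.7 points at this CpG, and this comparison has the same gap in kept strands.

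**Figure D4:**
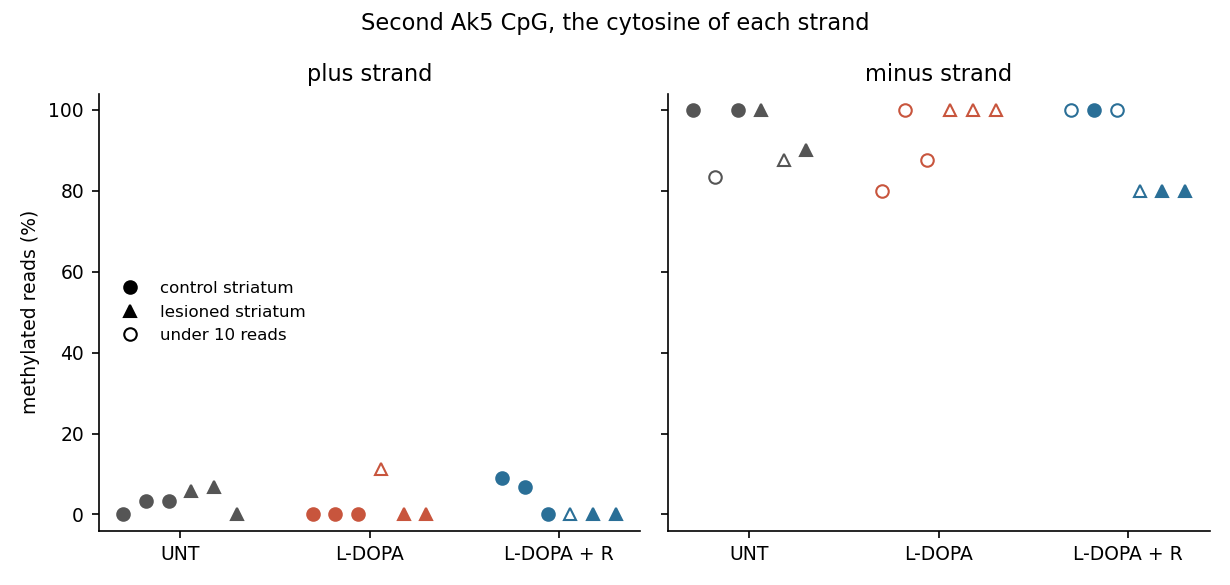
Methylated reads in percent at the second Ak5 CpG, with the plus strand cytosine on the left and the minus strand cytosine on the right, for each striatum (circles: control, triangles: lesioned, open symbols: under 10 reads). In all 18 striata the plus strand lies at or below 11.1% and the minus strand at or above 80%, and no minus strand point of L-DOPA is filled.

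The plus strand cytosine of the second Ak5 CpG lies 49 bases past another called cytosine of its strand, which is close to the read length of 50 bases. The CpG at 257829757, 49 bases before it, showed the mirror image, with 91.7% on the plus strand and 52.8% on the minus strand, whose cytosine is the one 49 bases past another. The CpG between them, at 257829794, had 96.7% on the plus strand and 96.8% on the minus strand. At the 6 CpGs of the windows with both strands read, other than 257829757 and the second Ak5 CpG, the plus strand minus the minus strand lay between -6.34 and 6.63 points. In the genome, among CpGs with at least 10 reads on both strands in all 18 striata, 1110 had one cytosine at 49 bases, and in 14.1% of them that cytosine read at least 20 points below its partner. Of 10556 such CpGs with no cytosine at 46 to 50 bases, 0.180% had a plus strand at least 20 points below the minus strand. The shares were 0.146% at 46, 2.18% at 47, 12.9% at 48 and 9.67% at 50 bases. In the windows, 6 CpGs had a cytosine at 46 to 50 bases, all in Ak5, and the first Ak5 CpG and the Ptger3 CpG were not among them. What lowers the reading near this distance was not tested.

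A CpG was called at a q under 0.01, where q is the p of a logistic model after Benjamini-Hochberg adjustment over all CpGs tested. Counted over the windows, few CpGs were called, and the 2 called over both sides were CpGs of the selection. L-DOPA against UNT, over both sides, gave 0 of 60 CpGs called, where 0.351% of all 654563 tested CpGs were called in the genome. An unadjusted p under 0.05 was found at 7 of the 60 CpGs (11.7%), against 7.37% of all CpGs. L-DOPA + R against UNT gave 0 of 54, with 0.445% called in the genome and 8 CpGs (14.8%) at an unadjusted p under 0.05, against 9.52% of all CpGs. L-DOPA + R against L-DOPA gave 2 of 50, with 0.0477% called in the genome and 7 CpGs (14%) at an unadjusted p under 0.05, against 7.09% of all CpGs. These 2 are the second Ak5 CpG and the Ptger3 CpG, which this contrast selected, so the share is not a result about the loci. Without the CpGs of the selection, an unadjusted p under 0.05 was left at 3 of 53 Ak5 CpGs and 1 of 4 Ptger3 CpGs for L-DOPA against UNT. It was left at 6 of 47 Ak5 CpGs for L-DOPA + R against UNT and at 5 of 43 for L-DOPA + R against L-DOPA. The genome shares are over CpGs of all levels. When the chi-square test was replaced by an F test, 0 CpGs were called in each of these comparisons. The striata of a rat are no independent samples, and with the reads of both added up per rat 0 CpGs were called as well, out of 58, 48 and 45 tested.

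Of the other Ak5 CpGs, 0 were called in any comparison, alternatives of the test aside. The smallest p of L-DOPA against UNT was at 257812041, with 84.0% ± 4.22 in L-DOPA and 74.8% ± 4.24 in UNT (difference 9.26 points). For both comparisons of L-DOPA + R it was at 257773953, a CpG read in 15 striata with 10 to 29 reads. There the rats had 51.9, 40 and 38.5% in UNT, 46.3, 47.4 and 53.6% in L-DOPA, and 29.4, 17.9 and 20% in L-DOPA + R. The L-DOPA + R rats thus lay below all other rats. The difference was -22.6 points against UNT (chi-square test, unadjusted p = 0.00209, q = 0.138), which did not pass the adjustment over the genome, and -27.2 points against L-DOPA. The next CpG, at 257773972, had 69.9% ± 2.36 in UNT, 58.5% ± 3.51 after L-DOPA and 58.2% ± 21.7 after L-DOPA + R, with both treatments at a similar mean, and was picked after its values were seen. Within L-DOPA + R the 3 rats had 78.9, 35.7 and 60% at this CpG.

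In the Ptger3 window, the smallest p among the other CpGs was at 263962014 for L-DOPA against UNT (-11.5 points, chi-square test, unadjusted p = 0.0421, q = 0.652), at 263961982 for L-DOPA + R against UNT (-10.8 points, unadjusted p = 0.0526, q = 0.532) and at 263962014 for L-DOPA + R against L-DOPA (5.05 points). None of the 4 other CpGs tested was called.

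A CpG was also described by whether the 3 rats of a treatment overlapped with those of another. Between L-DOPA and UNT, 10 of 58 CpGs of the windows did not overlap, 8 of them lower in L-DOPA, where 8.84% of all CpGs did not overlap in the genome. Between L-DOPA + R and UNT, these were 10 of 48, 7 of them lower in L-DOPA + R, against 9.65% in the genome. Between L-DOPA + R and L-DOPA, they were 10 of 45, 6 of them lower in L-DOPA + R, against 7.98% in the genome. Without the CpGs of the selection, 8, 9 and 8 CpGs remained in these counts, and the comparisons share rats. The genome shares were not matched for level. Of the CpGs read in all 18 striata, 39.0% in the genome and 0 of 26 in the windows lay below 20%. The counts are therefore not a result about the loci.

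In 6 other CpGs, all in Ak5, the L-DOPA + R rats overlapped with neither UNT nor L-DOPA, and L-DOPA + R was the lower group in 4 of these and the higher in 2. These 6 were among the 44 CpGs read in all 9 rats, which include the CpGs of the selection. In the genome, 3.07% of such CpGs, of all levels, did the same. The Ptger3 CpG also overlapped with neither, but its difference from L-DOPA selected it, so it is not counted. The 6 CpGs were looked at after their values were seen, and none of those tested passed a q of 0.01, alternatives of the test aside. At 257804260, a CpG read on both strands, the rats had 87.8, 83.2 and 84.6% in UNT, 85.9, 84.6 and 87.1% after L-DOPA, and 72.4, 69.7 and 79.5% after L-DOPA + R. Its difference was -12.9 points against L-DOPA and -12.3 points against UNT (chi-square test, unadjusted p = 0.00444, q = 0.202). At 257733533 the rats had 82.0, 82.1 and 69.8% in UNT, 82.1, 90.9 and 63.6% after L-DOPA, and 60, 50 and 53.8% after L-DOPA + R, and its comparisons with L-DOPA + R could not be tested over both sides, since too few striata had 10 reads. The higher CpGs were 257781463, at 96.0% ± 1.95 in L-DOPA + R against 90.2% ± 1.95 in UNT and 89.2% ± 4.95 in L-DOPA, and 257802310, at 83.3% ± 1.13 against 76.8% ± 5.17 and 76.7% ± 2.68. At both of these the groups without Riluzole had nearly the same mean. The values of 257773953 are given above. The last, at 257768995, had 10, 54.1 and 69.2% in the L-DOPA + R rats, 78.6, 94.6 and 80.5% in the L-DOPA rats and 78.7, 78.8 and 76.3% in the UNT rats, so that a single rat of L-DOPA + R made much of the difference.

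The mean of the Ak5 window lay between 80.9 and 82.2% in the treatments. Over the 22 CpGs read in all 18 striata, without the CpGs of the selection, it was 82.2% ± 1.39 in UNT, 81.2% ± 0.986 after L-DOPA and 80.9% ± 0.472 after L-DOPA + R (SD, n = 3 rats). L-DOPA + R differed from UNT by -1.25 points (exact two-sided permutation test, p = 0.3), which became -0.561 points without UNT replicate 2 and -1.95 points without UNT replicate 1. Within 10 kb of the CpGs of the selection, over 8 CpGs, it was -2.07 points (exact permutation test, p = 0.2). Single CpGs lay on both sides, with 10 of 22 lower and 12 higher in L-DOPA + R than in UNT and a median difference of 0.248 points. Against UNT, 13 were lower and 9 higher in L-DOPA.

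Within one side of the brain, 1 CpG was called over all comparisons. On the control side, 0 of 49 CpGs were called for L-DOPA against UNT (0.255% in the genome), 0 of 29 for L-DOPA + R against UNT (0.306%) and 1 of 30 for L-DOPA + R against L-DOPA (0.0264%), the latter being the Ptger3 CpG in the contrast that selected it. On the lesioned side, 0 of 46 (0.237% in the genome), 0 of 37 (0.287%) and 0 of 36 (0.0284%) were called in the same order. At an unadjusted p under 0.05 there were 7, 2 and 5 CpGs on the control side (14.3, 6.9 and 16.7%), against 6.99, 8.6 and 6.69% of all CpGs. On the lesioned side there were 6, 3 and 2 (13, 8.11 and 5.56%), against 7.04, 8.18 and 6.69%. These counts include the CpGs of the selection, and the F test called 0 in each.

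No CpG of either locus was called between the sides. Lesioned against control striata gave 0 of 57 CpGs in UNT (0.00193% called in the genome), 0 of 43 in L-DOPA (0.00101%) and 0 of 27 in L-DOPA + R (0.00176%). An unadjusted p under 0.05 was found at 3, 2 and 1 CpGs (5.26, 4.65 and 3.7%), against 6.45, 5.4 and 6.29% of all CpGs. The F test called 0 in each. The Ak5 mean was 82.0% in lesioned and 80.8% in control striata, a difference of 1.26 ± 2.54 points that was positive in 7 of 9 rats (exact two-sided sign-flip permutation test, p = 0.191). Without L-DOPA replicate 2 it was 1.77 points (exact permutation test, p = 0.0391), without L-DOPA replicate 3 it was 0.745 points, and in the windows of 10 kb it was 2.14 points (exact permutation test, p = 0.289). The Ptger3 mean differed by -0.296 ± 8.53 points and was higher on the lesioned side in 4 of 9 rats (exact permutation test, p = 0.902). The Ptger3 CpG itself differed by 0.107 ± 5.42 points between the sides, with 4 rats higher and 5 lower on the lesioned side.

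Whether a treatment acted differently on the lesioned and the control side was tested by an interaction term. The windows had 0 of 43 CpGs called for L-DOPA against UNT, with 0% called in the genome. They had 0 of 26 for L-DOPA + R against UNT, again with 0% in the genome, and 0 of 26 for L-DOPA + R against L-DOPA, with 0.000658% in the genome. At an unadjusted p under 0.05 there were 4, 0 and 1 CpGs (9.3, 0 and 3.85%), against 6.05, 6.44 and 6.12% of all CpGs. The F test called 0 in each. In L-DOPA alone, 2 Ak5 CpGs differed between the sides at an unadjusted p under 0.05, in opposite directions, and both were picked from the values. The CpG at 257804199 was 17.5 points higher on the lesioned side (chi-square test, unadjusted p = 0.00117, q = 0.560) and the one at 257781416 differed by -10.2 points (unadjusted p = 0.00121, q = 0.562). The smallest p of the interaction was also at the Ak5 CpG 257781416, picked after its value was seen, where the L-DOPA difference on the lesioned side minus that on the control side was -15.2 points (chi-square test, unadjusted p = 5.51e-04, q = 0.374).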

How the data were processed

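RRBS was analysed for the control and lesioned striatum of 9 rats, 3 per treatment. Reads of 50 bases were trimmed with Trim Galore 0.4.0 and mapped to rn6 with Bismark 0.14.3, and the study tested CpGs with methylKit 1.8.0. Per striatum and cytosine of a CpG, the authors deposited the coverage as a count of reads, without normalization or a minimum. The shares of these reads called C and called T were deposited by the authors as percent. Methylated reads were rebuilt from both. Spike-in sequences were left out.

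Cytosines under 10 reads in a striatum were dropped, and strands were merged. The test of methylKit was written anew in Python 3.11.15 (scipy 1.17.1, numpy 2.4.6, pandas 2.3.3): a logistic model per CpG, overdispersion from the Pearson residuals, a chi-square test and a Benjamini-Hochberg adjustment over all CpGs of the genome, with q under 0.01 called. It was run on simulated reads without extra variance between striata or rats. The overdispersion correction and the use of both striata of a rat as samples were thus not tested. Over both sides, CpGs in at least 4 of 6 striata per treatment were tested, each striatum as a sample, and within a side those in all striata. Striata of one rat are no independent samples, so the reads of both were also added up per rat as an alternative. Window means were compared by exact permutation tests over rats. The labels' replicate numbers were taken to pair the control and lesioned striatum of a rat. The lesion was unilateral and both striata were taken, but the labels do not name the rats. The deviations of the paired striata from their group means had correlations from 0.0336 to 0.112 over 294959 CpGs. Between treatments a number stands for different rats.

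The CpGs, windows and lists were chosen with earlier results of these data known. Named are the 3 CpGs of the selection, any other CpG called (alternatives of the test aside), the smallest p per locus and comparison over both sides, CpGs within 100 bases of the 3 and those most alike over rats. Other CpGs named are said to be picked after their values were seen. In a contrast that selected a CpG, p-values of single CpGs of its window were computed but are not printed, nor are those of other treatment comparisons at the 3 CpGs, a choice made after they were seen. Other adenylate kinases and prostaglandin genes were not analysed here, since no annotation of rn6 was used.

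Calls per striatum were 30288745 to 49113957 in UNT, 18471279 to 30764504 in L-DOPA and 19383285 to 25846139 in L-DOPA + R. The median depth of kept cytosines was 15 to 23 reads. Alternatives were a minimum of 20 reads, the F test, no overdispersion correction, a strand term, cytosines near the read end left out, a replicate block, rats left out in turn and narrower windows. Fits without a minimum or of one strand without it were added after seeing the data.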

Additional observations from a re-analysis of the deposited data

Results flagged for a closer look

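At the Ptger3 CpG, the control and lesioned striata of a rat differed in opposite directions in L-DOPA and L-DOPA + R. In L-DOPA all 3 rats were lower on the lesioned side, with differences from -2.72 to -0.113 points (mean -1.11 points). The smallest of these came from 42 of 43 methylated reads in the control and 40 of 41 in the lesioned striatum. In L-DOPA + R all 3 rats were higher on the lesioned side, by 3.53 to 8.38 points (mean 5.26 points). The UNT rats, which had neither drug, differed in both directions, from -10.5 to 2.52 points (mean -3.83 points). The difference between L-DOPA + R and L-DOPA in summed reads was 7.34 points higher on the lesioned than on the control side. The values of this CpG were used in its selection, so no test of this difference between the sides is given.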

How the results depend on the processing

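Of the values under an alternative, 235 kept their direction and their side of the threshold or changed little, while 28 moved, 15 reversed and 1 became stronger. Many of the 235 are counts of called CpGs that were 0 and stayed 0. Some kept their direction but not their size. The Ptger3 mean of L-DOPA minus UNT, for example, went from -9.68 to -5.04 points with the Ptger3 CpG included. The count of CpGs called for L-DOPA against UNT over both sides (0) became 1 without the overdispersion correction and 0 to 1 with a rat left out: the Ptger3 CpG without L-DOPA replicate 3, and the second Ak5 CpG without UNT replicate 2, both CpGs of the selection. On the control side it became 1 without the correction and 0 to 1 with a rat left out, namely without UNT replicate 2. For L-DOPA + R against L-DOPA over both sides (2), it became 3 without the correction, 0 with the F test, 0 with the rat as the unit, 1 with a strand term, 1 with CpGs in all 12 striata, 1 at a minimum of 20 reads, 1 without cytosines at 46 to 50 bases, and 0 to 2 with a rat left out (0 without L-DOPA replicate 1, 1 without L-DOPA replicate 2 or 3 or L-DOPA + R replicate 2). On the control side (1) it became 0 with the F test, 2 without the correction and 0 to 1 with a rat left out (0 without replicate 1 or 2 of either treatment). Over both sides, the CpG that this comparison gained without the correction was lower in L-DOPA + R and was not a CpG of the selection.

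The replicate block changed the count to 1 for L-DOPA against UNT over both sides and to 1 on the control side, the second Ak5 CpG each time, and to 0 for L-DOPA + R against L-DOPA on the control side. It changed no other call. The unpaired test of the sides gave p = 0.135 for Ak5 and 0.941 for Ptger3 (permutation).

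At the first Ak5 CpG, L-DOPA minus UNT was -10.0 points at a minimum of 20 reads and 23.1 points on the minus strand without a minimum, from 13 reads in UNT and 15 in L-DOPA. At the second Ak5 CpG, L-DOPA + R minus L-DOPA was 2.90 points on the plus strand, 2.20 with all reads, 1.28 on the plus strand and -5.74 on the minus strand without a minimum. The Ak5 mean at a minimum of 20 reads, over 3 CpGs, reversed to 1.44 points for L-DOPA minus UNT and to 0.328 for L-DOPA + R minus UNT. With a rat left out, the Ak5 mean was -0.808 to 0.0462 points for L-DOPA + R minus L-DOPA and 0.745 to 1.77 for lesioned minus control (p = 0.0391 by an exact permutation test without L-DOPA replicate 2). The Ptger3 mean for L-DOPA + R minus L-DOPA was -4.63 points with the Ptger3 CpG included and -4.89 to 5.05 with a rat left out, and for lesioned minus control it was -2.14 to 1.20. Except where fewer CpGs, reads or one strand entered by construction, the cause was not tested. Some settings left too few reads to give a value: the second Ak5 CpG at a minimum of 20 reads, without cytosines at 46 to 50 bases or on the minus strand, the first on the minus strand with the minimum, and the Ptger3 CpG on the plus strand.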
